A study of Bos taurus with 16 samples.

Results

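The transcripts of day 7 bovine blastocysts were set against those of the uterine lining from which such embryos are flushed, as percentile ranks within each array. All 5 blastocyst arrays and all 5 arrays of day 7 endometrium entered, 10 of the 16 arrays of the series, and both donor statuses were pooled in the test. The donors were superovulated cows (Bos taurus). A cow counted as healthy (HE) when 0 polymorphonuclear cells were found in her endometrial sample and as having subclinical endometritis (SE) when any were found. The blastocysts came from HE donors on 2 arrays and from SE donors on 3, each array carrying a pool of 10 embryos. The day 7 endometrium, brushed from the uterus with a cytobrush just before flushing, likewise came from HE cows on 2 arrays and SE cows on 3, again as pools. The other 6 arrays, endometrium brushed 2 h before insemination (day 0; 3 HE and 3 SE), entered no test and are quoted only beside named genes. RNA input was 15 ng in every sample and went through 2 rounds of amplification on Affymetrix bovine arrays. The labels do not match an embryo pool to an endometrial pool, and nothing shows that pools of a group shared no cows; every p-value below reflects pool-to-pool spread alone, which may be technical.

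A bovine blastocyst at this age is a hollow ball of cells that has not yet attached to the uterus. Its outer trophectoderm, which will form the placenta, secretes interferon tau, the signal by which a ruminant embryo announces itself to its mother; its inner cell mass will form the fetus, and the hypoblast, or primitive endoderm, will line the yolk sac. The endometrium facing it consists of surface and glandular epithelium over a stroma with vessels and leukocytes, and under progesterone its glands secrete the fluid that feeds the embryo. A brush collects mostly the surface layer. Because whole pools were measured, fewer cells of a type and less RNA per cell cannot be told apart.

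The rank scale was used because the 2 tissues had value distributions of their own. Each of the 24016 probe sets was placed on its array between 0 (dimmest) and 100 (brightest), and a difference is given in percentile points, blastocyst minus endometrium. Every blastocyst array held an exact lowest value of 2.20 on the log2 scale, shared by 7415 to 7622 probe sets (30.9% to 31.7% of the array), which therefore tied at percentiles of 15.4 to 15.9. No endometrial array had such a tie. A gene at 15.6 in blastocysts is at that lowest value, its small SD shows only how many probe sets tied, and rank differences among dim probe sets carry little. Probe sets differ in brightness for the same RNA, so ranks are compared between tissues for a probe set and not between genes.

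The blastocyst RNA also read differently along its transcripts. Affymetrix arrays carry control probe sets for the 3' end, the middle and the 5' end of a few transcripts, and amplification from a poly(A) tail favours the 3' end. For the glycolytic enzyme GAPDH, the 3' control exceeded the 5' control by 4.97 to 5.85 on the log2 scale on the blastocyst arrays and by 0.215 to 0.574 on the day 7 endometrial arrays. The cyclophilin PPIB gave 4.90 to 5.24 against 0.846 to 1.23, and the cap-binding protein EIF4E 10.7 to 11.2 against 3.67 to 4.53. EEF1A1, the elongation factor that brings aminoacyl-tRNA to the ribosome, gave 1.41 to 2.36 against -3.28 to -2.94. In ranks, EIF4E stood at a mean of 99.1 in blastocysts and 97.7 in endometrium when read at its 3' end, and at 20.9 and 76.6 when read at its 5' end. PPIB at its 5' end stood at 64.8 and 95.6. At the 5' end the blastocyst mean was thus lower by more than the 25 points used below to call a difference for EIF4E and PPIB, and by less for GAPDH (80.1 and 99.02) and EEF1A1 (92.0 and 99.94). Its part in the results was not tested, and tissue, amplification and processing cannot be told apart.

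**Figure D1:**
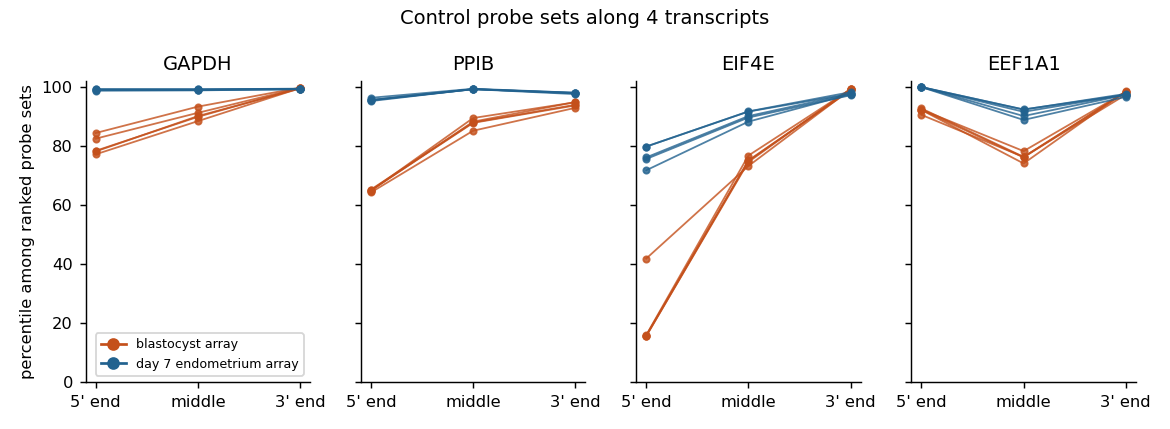
Percentile rank (vertical axis, 0 to 100) of control probe sets at the 5' end, middle and 3' end of 4 transcripts, with a line for each of the 5 blastocyst and 5 day 7 endometrial arrays. Tissue means lie within 4 points of each other at the 3' end, and blastocysts are lower at the 5' end, where EIF4E averages 20.9 in blastocysts and 76.6 in endometrium.

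The markers of each tissue were read next. Of the 11 lineage markers of the blastocyst chosen as a check, 5 are named on the array (IFNT2, PAG2, POU5F1, SOX2 and GATA6); all 5 averaged above percentile 50 in blastocysts and below it in endometrium. CDX2, GATA2, GATA3, TFAP2C, NANOG and SOX17 are not named in the annotation used. Epithelial markers were present on both sides: EPCAM averaged 99.93 and 99.3, CDH1 98.5 and 94.3, KRT18 99.67 and 87.9. KRT8, the usual keratin partner of KRT18, was an exception, at 15.9 in endometrium on its only probe set. All 6 leukocyte markers named (PTPRC, CD3D, CD3E, TYROBP, AIF1 and LAPTM5) averaged above 50 in endometrium and below 50 in blastocysts. By the rule given below, 3 of the 6 were called for endometrium and the rest were not. The joint mean of the 6 was 64.2 to 74.2 on the endometrial arrays and 28.4 to 29.1 on the blastocyst arrays. There PTPRC, TYROBP and LAPTM5 were at the lowest value throughout. The joint mean of the 5 stromal markers was 71.3 to 85.2 on the endometrial arrays and 30.9 to 33.0 on the blastocyst arrays. All 5 averaged at least 50 in endometrium, but 1 did so in blastocysts too, and 3 of the 5 were called for endometrium. Of the 5 markers of secretory uterine epithelium, SERPINA14 and MUC1 averaged above 50 on day 7, while RBP4, PAEP and OLFM4 did not. Of 3 endothelial markers, 2 averaged at least 50 in blastocysts and 0 in endometrium. Their joint mean was 39.75 to 48.35 in blastocysts and 19.15 to 22.16 in endometrium. In the same order, 2 red cell markers gave 38.42 to 39.78 and 25.35 to 27.73. Smooth muscle (2 markers) overlapped, at 46.23 to 52.25 and 41.93 to 54.1. Ciliated cells (2 named) gave 29.21 to 46.38 and 62.86 to 68.53. The steroid receptors ESR1 (15.6 in blastocysts and 1.997 in endometrium) and PGR (20.4 and 15.9) were dim in both tissues on their only probe sets, so receptor levels cannot be read here.

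Ranks in embryo and uterus were alike in outline and apart in detail. The correlation over 24016 probe sets was 0.745 between the tissue means, a description across probe sets that share a platform. Between single arrays of the 2 tissues it was 0.728 to 0.742, against 0.970 to 0.983 between blastocyst arrays and 0.990 to 0.992 between day 7 endometrial arrays. Within a tissue the median SD of a probe set was 1.10 points in blastocysts and 1.04 in endometrium. With so small a spread, limma passed 85.3% of probe sets at an adjusted p under 0.05, and the 5 arrays of one tissue lay wholly above those of the other for 79.1%. A size was therefore required as well. A probe set was called when its adjusted p was under 0.05 and the tissue means differed by at least 25 points. By this rule 2136 probe sets were higher in blastocysts (8.89%) and 2349 in endometrium (9.78%). With tied values given the lowest rank of their tie, the counts were 2119 and 4204, so that 33.5% of calls were on the blastocyst side instead of 47.6%. Of the calls, 640 and 601 concerned probe sets whose mean was under 50 in both tissues. In 1136 of the endometrial calls all 5 blastocyst arrays were at their lowest value. Some 45.4% of probe sets lay within 10 points in the 2 tissues, and the median difference was 0.900.

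**Figure D2:**
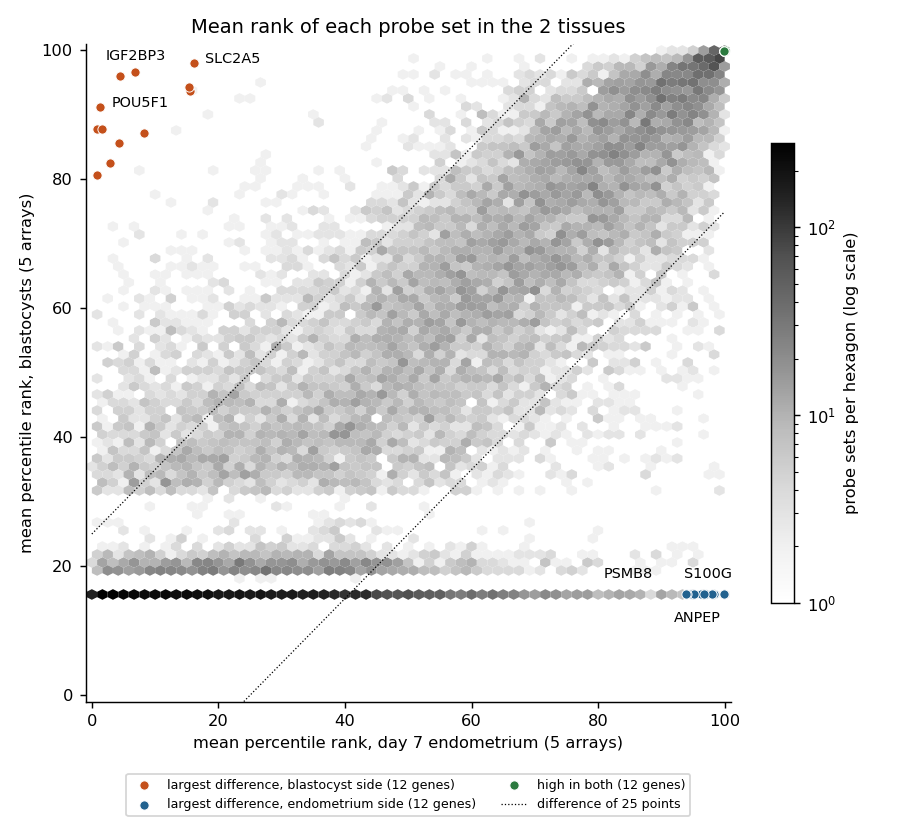
Mean percentile rank of 24016 probe sets in day 7 endometrium (horizontal) and blastocysts (vertical), 5 arrays each; grey hexagons give the number of probe sets on a log scale. The horizontal band near 15.6 is the tie at the lowest blastocyst value, where the 12 endometrium-side genes with the largest differences lie; dotted lines mark a difference of 25 points.

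Counted by gene, each read on its highest-ranked probe set, 701 of 9155 genes were higher in blastocysts (7.66%) and 924 in endometrium (10.1%). These shares are the background for every list below. Genes with several probe sets often disagreed among themselves. Of the called genes with 2 or more probe sets, 54 of 223 on the blastocyst side (24.2%) and 96 of 247 on the endometrial side (38.9%) had every probe set called the same way, and 33 genes had probe sets called in both directions.

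On the embryo side stood the regulators of the inner cell mass. POU5F1 (OCT4), the transcription factor that maintains pluripotency, ranked at 92.01, 94.1, 88.3, 91.5 and 90.1 on the blastocyst arrays, in the order HE replicates 1 and 2 and SE replicates 1 to 3. On the day 7 endometrial arrays it ranked at 1.34, 1.39, 1.36, 1.33 and 1.39 in the same order. The groups did not overlap, and the means differed by 89.8 points (standard error 0.933, adjusted p = 1.97e-13). SOX2, its partner on DNA, stood at 77.1, 73.1, 69.4, 76.2 and 71.1 in blastocysts and 10.6, 10.7, 10.6, 10.6 and 10.9 in endometrium, a difference of 62.7 (standard error 1.39, adjusted p = 4.83e-11). Only these 2 of the 6 measured genes of the pluripotency list were called. KLF4 (99.6 and 89.9) and KLF5 (99.54 and 97.05), zinc-finger factors of the same network that epithelia also express, ranked high in both tissues.

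Hypoblast genes gave 6 calls among 15 measured on the blastocyst side and 1 on the endometrial side, with a median difference of 24.1 points against 0.137 over all genes. GATA6, the transcription factor that sets up the hypoblast, ranked at 99.81, 99.82, 99.78, 99.83 and 99.87 in blastocysts and at 24.3, 24.5, 25.03, 24.4 and 24.9 in endometrium, with no overlap (difference 75.2, standard error 0.193, adjusted p = 1.6e-16). DAB2, an endocytic adaptor of primitive endoderm, averaged 96.98 ± 0.315 (SD, n = 5) and 29.6 ± 2.09 (SD, n = 5) on its highest-ranked probe set, but its other probe set differed by -14.97. PDGFRA, a receptor for platelet-derived growth factor that marks this lineage, stood at 97.0, 96.3, 96.3, 98.2 and 98.4 in blastocysts and 50.2, 64.8, 68.5, 62.5 and 51.1 in endometrium; all blastocyst arrays were higher. RSPO3, a secreted enhancer of Wnt signalling, averaged 68.1 ± 3.92 and 13.4 ± 1.19. The lipid carrier APOE went the other way, at 40.8 ± 0.271 in blastocysts and 81.7 ± 3.39 in endometrium (difference -40.9, standard error 1.45, adjusted p = 2.05e-09).

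Trophectoderm genes gave 7 calls of 19 on the blastocyst side and 1 on the endometrial side. IFNT2, an interferon tau gene, ranked at 92.1, 86.3, 93.5, 82.8 and 84.01 in blastocysts and at 0.743, 0.756, 0.777, 0.743 and 0.785 in endometrium. Every blastocyst array lay far above every endometrial one (difference 87.0, standard error 2.05, adjusted p = 7.85e-11). The interferon tau genes are near-identical copies, so the probe set may not separate them. PAG2, a pregnancy-associated glycoprotein of the trophoblast, stood at 77.3, 70.2, 80.2, 78.97 and 68.5 and 17.7, 17.8, 17.97, 17.7 and 18.1, again apart (difference 57.2, standard error 2.27). Of the other pregnancy-associated glycoproteins measured, PAG8 and PAG11 were at the lowest value on all blastocyst arrays and PAG12 averaged 22.5; these, with the placental hormone gene CSH2 at 19.4, were in the dim range. The transcription factor TFAP2A averaged 72.1 ± 5.74 against 28.7 ± 1.37. KRT8 ranked at 73.7, 75.6, 77.9, 75.3 and 74.5 against 15.67, 16.3, 15.6, 16.01 and 15.9. ELF5, an epithelial transcription factor also known from trophoblast, was called on the endometrial side, at 20.03 ± 9.80 and 75.5 ± 7.30; 4 of 5 blastocyst arrays were at the lowest value.

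Genes known for transcripts of the oocyte, some of which the early embryo inherits, were read next. Of 10 measured, 6 were called higher in blastocysts and 0 in endometrium, but in 4 of the 6 both tissue means were under 50. The zona pellucida glycoproteins of the egg coat, ZP2 (52.97 ± 1.51 and 5.92 ± 0.127), ZP3 (45.9 ± 2.38 and 1.64 ± 0.0207) and ZP4 (49.9 ± 5.95 and 4.84 ± 0.0503), lay in or near that dim range. GTSF1, a factor of small-RNA silencing in germ cells, averaged 69.02 ± 2.73 in blastocysts and 29.1 ± 0.375 in endometrium. The oocyte growth factors GDF9 (34.1 and 15.99) and BMP15 (15.6 and 15.4) were not called.

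Cell cycle genes made up the list with the highest share called on the blastocyst side: 23 of 37 against 2 on the endometrial side, with a median difference of 30.7 points. CCNA2, the cyclin of S phase and mitosis, ranked at 90.2, 91.1, 85.5, 90.4 and 90.1 in blastocysts and at 22.04, 17.02, 16.8, 17.5 and 17.1 in endometrium (difference 71.4, standard error 1.35, adjusted p = 1.36e-11). CCNE1, the cyclin that drives entry into S phase, averaged 82.1 ± 2.31 and 22.1 ± 0.422, and both its probe sets were called. CDC25C, the phosphatase that releases mitosis, averaged 77.7 ± 2.31 and 10.4 ± 0.0833, and the spindle checkpoint kinase BUB1B 93.4 ± 0.991 and 33.2 ± 8.82. CDK1, the mitotic kinase, stood at 91.2 to 95.5 on the blastocyst arrays and 50.02 to 56.4 on the endometrial ones. The list was not uniform, since CCNB1 averaged 97.2 and 99.01 and PCNA 96.5 and 90.5. Called on the endometrial side were cyclin D3, CCND3 (56.5 ± 0.646 and 83.2 ± 1.01), and the cyclin-dependent kinase inhibitor CDKN1C (61.5 ± 3.92 and 90.4 ± 1.56). CDKN1C has 3 probe sets, of which 1 was called, and on gene means the difference was -3.25.

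Of 22 regulators of DNA methylation and chromatin, 3 were called on the blastocyst side and 0 on the other. The de novo DNA methyltransferase DNMT3A averaged 98.99 ± 0.302 and 64.95 ± 1.75, with 2 of its 3 probe sets called. EZH2, which methylates histone H3 to silence genes, stood at 91.7 to 93.2 in blastocysts and 48.5 to 53.1 in endometrium (difference 42.9, standard error 0.88, adjusted p = 2.57e-11). DNMT3B was called at dim ranks, 49.3 ± 0.349 against 19.7 ± 0.492, and lost the call when genes were ranked on gene means (22.1). DNMT1, which copies methylation after replication, averaged 68.5 ± 2.71 and 66.2 ± 1.41; its groups overlapped (adjusted p = 0.128).

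Several transporters ranked near the top in the embryo and near the bottom in the uterus. SLC2A5, the fructose transporter GLUT5, stood at 97.8, 97.97, 98.5, 97.98 and 97.8 in blastocysts and at 16.1, 16.4, 15.6, 16.7 and 15.99 in endometrium, and all 3 of its probe sets were called (difference 81.9, standard error 0.25, adjusted p = 2.18e-16). SLC7A5, a carrier of large neutral amino acids, ranked at 95.2, 95.4, 92.1, 94.6 and 94.8 and 29.1, 36.7, 26.4, 29.8 and 11.5. SLC16A1, a lactate and pyruvate carrier, ranked at 97.1, 96.3, 96.9, 96.4 and 94.7 and 27.4, 27.7, 27.6, 27.5 and 28.01. For all 3 carriers the tissues were apart on every array, as they were for 79.1% of all probe sets. The water channels AQP3 (93.7 ± 1.12 and 15.5 ± 7.41) and AQP11 (77.9 ± 4.62 and 1.05 ± 0.013) and the sodium-proton exchanger SLC9A3 (68.4 ± 5.27 and 20.1 ± 0.306) were also called on the blastocyst side, although 2 of the 3 SLC9A3 probe sets were not. The general glucose transporter SLC2A1 ranked high in both tissues (92.6 ± 0.666 and 84.1 ± 0.778), and SLC2A3 was dim in both (31.7 ± 0.307 and 9.86 ± 0.189). The sodium-coupled carrier SLC5A11 averaged 64.1 ± 4.27 and 18.9 ± 0.206. In the list of 21 glucose and amino acid transporters 4 were called for blastocysts, 1 of them with both means under 50. The 1 called for endometrium was the arginine carrier SLC7A1 (20.1 ± 10.1 and 59.9 ± 2.92), whose call was lost on the HE arrays alone (-35.6). The glucose transporter SLC2A4 lost its blastocyst call on gene means (18.6), over named probe sets (24.2), on log2 values (0.504) and with dim endometrial values tied (22.25). Over all 179 solute carriers named SLC, 29 were called for blastocysts and 10 for endometrium, beside 7.66% and 10.1% of all genes.

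On the blastocyst side the largest difference belonged to IGF2BP3, a fetal RNA-binding protein that controls IGF2 and other mRNAs. It ranked at 96.3, 94.5, 96.9, 96.5 and 95.8 in blastocysts and at 4.44, 4.49, 4.46, 4.47 and 4.53 in endometrium (difference 91.5, standard error 0.404, adjusted p = 1.64e-15), and its other probe set differed by 41.04. Its relative IGF2BP1 averaged 98.2 ± 0.278 and 51.2 ± 4.63. Next by size came ATP6V0D2, a subunit of the vacuolar proton pump, at 96.7 ± 0.401 against 6.76 ± 0.0567. With dim endometrial values tied too, the order turned, at 80.4 for IGF2BP3 and 81.05 for ATP6V0D2. TRIM6, a ubiquitin ligase, averaged 87.8 ± 1.43 and 1.53 ± 0.0394, and AGPAT4, an enzyme of phospholipid synthesis, 85.6 ± 1.28 and 4.29 ± 0.105. CARNS1, which makes carnosine, averaged 82.5 ± 2.48 and 2.94 ± 0.115, the aminopeptidase XPNPEP2 94.3 ± 1.24 and 15.3 ± 0.303, and TROAP, a protein of the mitotic spindle, 87.2 ± 1.44 and 8.31 ± 1.15. MGC152281, an uncharacterised gene, averaged 80.6 ± 2.79 and 0.892 ± 0.0855. The steroidogenic genes STAR (76.5 ± 3.63 and 33.9 ± 0.592) and CYP19A1 (65.1 ± 1.09 and 10.7 ± 0.166), the latter aromatase, were called too. CYP19A1 has 4 probe sets of which 2 were called, and its call was lost when genes were ranked on gene means (17.9).

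**Figure D3:**
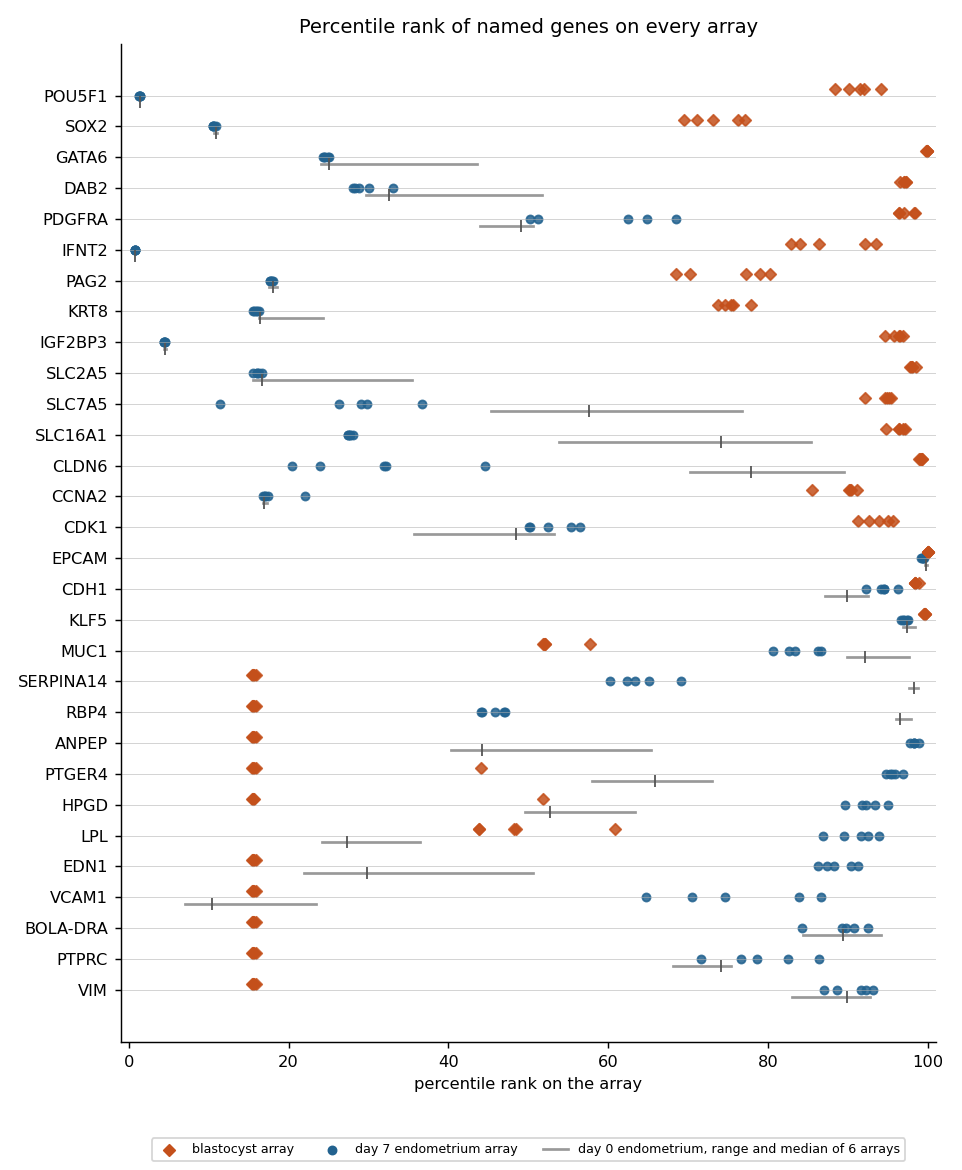
Percentile rank of 30 genes on each of the 5 blastocyst arrays (diamonds) and 5 day 7 endometrial arrays (circles), with the range and median of the 6 day 0 endometrial arrays as a grey line and tick. POU5F1, GATA6, IFNT2 and the other genes at the top lie further right in blastocysts than in day 7 endometrium, EPCAM, CDH1 and KLF5 lie at the right in both tissues, and from MUC1 down the day 7 endometrium is higher.

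On the uterine side, S100G, the vitamin D-dependent calcium-binding protein of transporting epithelia, had the largest difference. It ranked at 99.85, 99.84, 99.9, 99.92 and 99.83 on the endometrial arrays and was at the lowest value on all 5 blastocyst arrays (difference -84.2, standard error 0.153, adjusted p = 3.26e-17). That lowest value sits near percentile 15.6, which limits differences in this direction; with ties at their lowest rank S100G differed by -99.9 and IGF2BP3 by 91.5. The other 11 of the 12 genes with the largest differences were likewise at the lowest value in every embryo pool. ANPEP, an aminopeptidase of epithelial surfaces, ranked at 98.3, 98.9, 98.2, 98.2 and 97.7 in endometrium. CLDN1, a tight junction protein, averaged 97.05 on the probe set chosen by size and 98.7 in endometrium and 57.0 in blastocysts on its brighter one. PSMB8, a subunit of the immunoproteasome, averaged 94.01 ± 1.05, the ferric reductase CYBRD1 94.7 ± 1.28, the retinol dehydrogenase family member SDR16C5 97.96 ± 0.221, and the transcriptional co-regulator CITED4 94.5 ± 0.858. The remaining members were SFTA2 (98.1), SYNE4 (96.7), LRATD1 (96.3), PDZK1IP1 (95.2) and TSPAN1 (93.9).

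Secretory genes of the uterine epithelium gave 12 calls of 27 on the endometrial side and 2 on the blastocyst side, with a median difference of -14.3. SERPINA14, the uterine serpin or uterine milk protein, ranked at 62.3, 60.2, 63.3, 69.1 and 65.1 in endometrium and at the lowest value on all blastocyst arrays. TFF3, a trefoil peptide of mucus, averaged 19.03 ± 7.51 and 96.6 ± 1.27, and PIGR, which carries antibodies into the lumen, 15.6 ± 0.168 and 83.6 ± 6.03. LTF, the iron-binding antimicrobial lactoferrin, stood at 15.6, 15.69, 72.1, 38.8 and 51.3 in blastocysts and 99.4, 99.2, 99.51, 98.2 and 97.1 in endometrium; the blastocyst arrays spread over much of the scale and yet stayed below the endometrial ones (difference -59.98, standard error 10.3, adjusted p = 0.000383). AGR2, a chaperone of secretory cells, averaged 45.96 ± 8.37 and 95.6 ± 2.30, and the surface mucin MUC1 53.1 ± 2.55 and 83.9 ± 2.54. RBP4, the carrier of retinol, was called at dim ranks (15.6 ± 0.168 and 45.6 ± 1.44), and the call was lost when ranks were taken over named probe sets (-23.5) or gene means (-20.6). PAEP and SPP1, named for their roles in uterine fluid, were not called: PAEP averaged 15.6 ± 0.168 and 26.3 ± 0.22, SPP1 62.7 ± 3.84 and 70.4 ± 6.10. The 2 secretory genes called for blastocysts were CTSL, a lysosomal protease (95.3 ± 1.07 and 45.5 ± 4.08), and the protease inhibitor TIMP1 (93.5 ± 1.27 and 58.2 ± 2.79).

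Among 22 steroid receptors and genes known to respond to the luteal phase, 6 were called for endometrium and 4 for blastocysts. PDZK1, a scaffold for membrane transporters, stood at 62.9, 67.4, 75.7, 58.9 and 59.1 in blastocysts and 98.8, 99.2, 99.2, 99.3 and 98.95 in endometrium. LPL, the lipase that frees fatty acids from lipoproteins, ranked at 43.8, 43.9, 60.8, 48.2 and 48.5 and 86.8, 89.5, 91.5, 92.5 and 93.8. The groups were apart for both, as for 79.1% of all probe sets. ESR2, the second oestrogen receptor, averaged 18.9 ± 7.36 and 67.3 ± 1.89. OXTR, the oxytocin receptor, averaged 42.3 ± 1.88 and 65.7 ± 6.91, a difference of -23.4 that missed the size rule; it passed without SE endometrium replicate 1 (-25.9).

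Prostaglandins are made by both tissues and govern luteal life. PTGS2, the inducible cyclooxygenase that starts their synthesis, ranked at 93.7, 90.7, 97.6, 96.3 and 95.7 in blastocysts and 59.7, 68.6, 58.03, 63.02 and 65.01 in endometrium, with every blastocyst array higher (difference 31.9, standard error 2.12, adjusted p = 3.12e-07); 2 of its 3 probe sets were called and the remaining one differed by -2.17. PTGIS, the prostacyclin synthase, went the other way at 42.7 ± 0.259 and 87.96 ± 0.42. HPGD, which inactivates prostaglandins, ranked at 15.6, 15.69, 15.4, 51.9 and 15.5 and 91.7, 93.3, 92.2, 94.96 and 89.6. PTGER4, a receptor for prostaglandin E2, ranked at 15.6, 15.69, 15.4, 15.9 and 44.1 and 95.4, 95.2, 96.9, 95.8 and 94.7. In both cases 4 of 5 blastocyst arrays were at the lowest value, and the fifth was still below all endometrial arrays. Of 17 genes in the list, 2 were called for blastocysts and 4 for endometrium. On the mean of each gene's probe sets 1 was called for blastocysts.

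Interferon tau acts on the uterus through the type I interferon receptor. IFNAR2, a chain of that receptor, ranked at 67.4, 64.8, 68.3, 63.1 and 65.6 in endometrium and at the lowest value in blastocysts (difference -50.2, standard error 0.887, adjusted p = 7.87e-12). IFNAR1, the other chain, averaged 35.01 ± 4.64 and 50.8 ± 1.37 and missed the size rule. Of 24 genes of interferon signalling, 10 were called for endometrium and 0 for blastocysts, with a median difference of -16.5. Interferon-induced genes among them were the antiviral GTPase MX1 (15.6 ± 0.168 and 67.9 ± 3.84), IFI6 (15.6 ± 0.168 and 83.5 ± 7.93) and IFIT5 (27.5 ± 16.2 and 88.5 ± 0.894). MX2, OAS1X and RSAD2, induced by the same signal, were dim in both tissues, at endometrial means of 9.33, 11.99 and 32.8.

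Antigen presentation was the list with the highest share called on the endometrial side, 13 of 22 against 1, with a median difference of -28.8. BOLA-DRA, the alpha chain of the class II molecule DR that shows peptides to helper T cells, ranked at 89.8, 90.7, 92.5, 89.2 and 84.3 in endometrium and at the lowest value in all embryo pools. BOLA-DQA2 averaged 82.9 ± 6.85 on the brightest of 3 probe sets, 2 of which were called; the class II genes are polymorphic and alike, so probe sets may not separate them. PSMB10, another immunoproteasome subunit, averaged 19.1 ± 7.75 and 90.4 ± 1.20. B2M, the light chain of class I, ranked high in both (99.72 and 99.76). ERAP1, a peptide-trimming enzyme, was called for blastocysts (68.4 ± 6.44 and 41.1 ± 14.2), a call lost without SE endometrium replicate 3 (21.3).

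Complement and antimicrobial genes gave 13 calls of 29 for endometrium and 0 for blastocysts. SAA3, an acute-phase protein made by epithelia, averaged 22.1 ± 14.3 and 98.96 ± 0.379. The complement protease CFI averaged 21.1 ± 12.1 and 82.8 ± 4.04, C1QA, part of the first complement component, 15.6 ± 0.168 and 76.4 ± 7.51, and S100A12, a protein of neutrophils, 15.6 ± 0.168 and 79.3 ± 8.29. Of 29 leukocyte genes, 14 were called for endometrium and 1 for blastocysts. PTPRC (CD45), on all leukocytes, ranked at 76.6, 82.5, 86.3, 78.6 and 71.5 in endometrium, with 1 of its 3 probe sets called. LAPTM5 averaged 85.5 ± 2.91, CORO1A 78.8 ± 4.46 and S100A8, abundant in neutrophils, 70.5 ± 8.78, all against the lowest value in blastocysts. The kinase ZAP70, known from T cells, was the exception at 91.7 ± 1.72 and 59.7 ± 4.19. Leukocytes moved with the immune lists as given above (joint marker means of 64.2 to 74.2 and 28.4 to 29.1), and their part in these differences was not tested.

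Stromal genes gave 8 calls of 18 for endometrium. VIM, the intermediate filament of mesenchyme, ranked at 86.9, 93.05, 92.3, 91.7 and 88.6 in endometrium and at the lowest value in every embryo pool (difference -74.9, standard error 1.12, adjusted p = 2.19e-12). The collagen COL3A1 averaged 24.5 ± 12.8 and 93.7 ± 4.16, and the matrix proteoglycans DCN and LUM 81.95 ± 8.93 and 77.99 ± 8.95 against the lowest value. The 1 stromal call for blastocysts was fibronectin, FN1, at 99.77, 99.81, 99.82, 99.89 and 99.84 and 69.8, 71.99, 76.4, 72.4 and 58.4, on the brighter of its probe sets; the other differed by 12.5, and on their mean the list had 0 such calls. Vessel and blood genes gave 3 blastocyst calls and no endometrial call among 17. PECAM1, an endothelial adhesion molecule, was higher in blastocysts on both probe sets (69.5 ± 4.74 and 16.02 ± 0.287). The others were MYLK, a myosin kinase of smooth muscle (90.1 ± 2.80 and 63.9 ± 9.83), and ALAS2, of haem synthesis in red cells (49.9 ± 2.93 and 21.0 ± 0.217). The MYLK call was lost without HE endometrium replicate 1 (23.6) or SE endometrium replicate 3 (23.7), and on the SE arrays alone (23.57). ALAS2 was called at dim ranks, and its call was lost on gene means (20.7) and on ranks over named probe sets (24.9).

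In the epithelial list of 28, 3 were called for blastocysts and 5 for endometrium, beside 7.66% and 10.1% of all genes. CLDN6, an embryonic claudin, ranked at 99.1, 99.2, 99.02, 99.2 and 98.9 in blastocysts and 31.98, 20.5, 23.9, 44.5 and 32.2 in endometrium; its other probe set differed by 17.8, under the size rule. KRT5 averaged 92.3 ± 2.40 and 25.6 ± 19.5. CLDN3 (54.5 ± 1.21 and 86.7 ± 0.739), the vesicle GTPase RAB25 (44.6 ± 0.199 and 85.98 ± 2.91) and the epithelial transcription factor ELF3 (46.5 ± 0.173 and 81.8 ± 2.20) were called for endometrium. The water channels AQP4 (23.5 ± 10.8 and 91.1 ± 5.43) and AQP5 (15.6 ± 0.168 and 60.03 ± 6.29) and the carbonic anhydrase CA2 (20.4 ± 10.8 and 95.8 ± 1.27) stood opposite AQP3 and AQP11. Of 6 genes of ciliated cells, 2 were called for endometrium, with TPPP3 at 41.9 ± 0.986 and 77.9 ± 1.60. Of 38 adhesion and matrix genes, 3 were called for blastocysts (1 on the mean of probe sets), a share near the background of 7.66%. For endometrium 6 of the 38 were called, beside 10.1% of all genes. These were led by ALCAM (21.8 ± 13.6 and 88.4 ± 2.49), VCAM1 (15.6 ± 0.168 and 76.04 ± 9.13) and the integrin subunit ITGB4 (15.6 ± 0.168 and 74.7 ± 3.42).

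**Figure D4:**
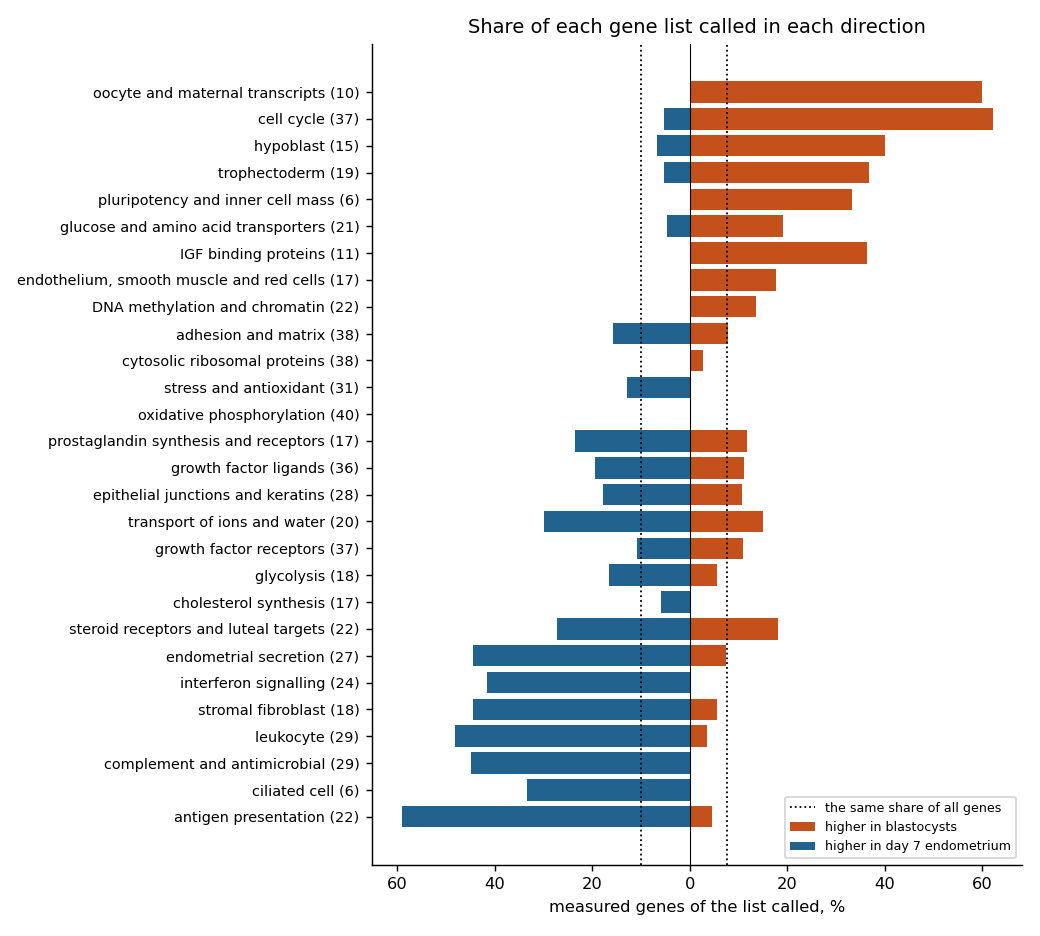
Percent of the measured genes of 28 lists (number in brackets) called higher in blastocysts (right) or in day 7 endometrium (left), ordered by median difference; dotted lines mark the same shares over all genes, 7.66% and 10.1%. Oocyte, cell cycle and lineage lists lie at the top, antigen presentation, complement and leukocyte lists at the bottom, and oxidative phosphorylation has no call. For 35 of the 40 oxidative phosphorylation genes both tissue means ranked too high for a call to be possible.

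Much of the brightest RNA was shared. At percentile 90 or above on all 10 arrays were 1096 probe sets of 838 genes, and 977 of these probe sets were also there on all 6 day 0 arrays. Of 68 genes named RPL or RPS, which encode the cytosolic ribosome, 63 had a probe set in this class. The 12 genes whose lowest rank over the 10 arrays was highest were RPL7, ODC1, ACTG1, RPL17, RACK1, EEF1A1, RPS24, RPL27A, TPT1, RPL30, RPS18 and RPL11, all with means of at least 99.85 in both tissues and differences between -0.0849 and 0.0908. ODC1, the first enzyme of polyamine synthesis, ranked at 99.94 to 99.99 in blastocysts and 99.95 to 99.97 in endometrium. Ranks at this end are compressed, and means that both lie at 90 or above cannot differ by enough for a call. In the fixed list of 38 ribosomal proteins, 36 averaged at least 90 in both tissues and 1 was called: RPS19 stood at 51.2 ± 0.527 and 5.90 ± 0.149, while its other probe set differed by -20.8 and the call was lost on gene means (15.98).

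Genes of energy metabolism followed. Of 40 subunits of the respiratory chain and ATP synthase, 35 averaged at least 90 in both tissues and 0 were called. Means that both lie at 90 or above cannot differ by enough to meet the size rule. No call was thus possible for those 35, and the count of 0 cannot be set against the background. The median difference of the 40 was -0.899. In glycolysis, 7 of 18 genes averaged at least 90 in both, 1 was called for blastocysts (SLC16A1, given above) and 3 for endometrium (2 on the mean of probe sets). TPI1, triosephosphate isomerase, was the glycolytic enzyme furthest apart, at 48.4, 48.8, 49.3, 48.8 and 44.6 in blastocysts and 98.4, 98.1, 98.05, 98.4 and 98.2 in endometrium on its only probe set (difference -50.3, standard error 0.823, adjusted p = 4.4e-12). PFKL averaged 58.4 ± 1.47 and 85.9 ± 2.06. SLC16A3, a lactate exporter with 3 probe sets, averaged 34.3 ± 0.341 and 73.6 ± 2.54, opposite to SLC16A1. Its call was lost when genes were ranked on gene means (-15.9). Cholesterol synthesis had 1 call in 17, INSIG1, the sterol sensor that restrains the pathway, at 67.4 ± 6.24 and 95.4 ± 0.825; on the mean of each gene's probe sets it had 2. Of 31 stress and antioxidant genes, 4 were called for endometrium and 0 for blastocysts (2 on the mean of probe sets). In 17 of the 31 both means were at least 90, so these counts cannot be set against the background. The 4 were led by GCLC, which limits glutathione synthesis (25.8 ± 15.0 and 81.8 ± 7.89), a call lost on the HE arrays alone (-38.1).

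Ligands and receptors were read on both sides of the embryo and uterine interface. Of 36 ligands, 4 were called for blastocysts and 7 for endometrium; of 37 receptors, 4 and 4, with 2 for blastocysts on the mean of each gene's probe sets. The receptor shares are near the background of 7.66% and 10.1%. IL6, an inflammatory cytokine, ranked at 85.3, 89.01, 71.1, 75.6 and 82.0 in blastocysts and 29.5, 28.1, 28.1, 28.4 and 28.3 in endometrium, and its receptor IL6R at 67.4 to 79.3 and 93.8 to 95.7, a difference of -21.2 points. NRG1, a ligand of ERBB receptors, averaged 59.9 ± 3.28 and 21.4 ± 5.48. AREG and BTC, ligands of the EGF receptor, averaged 18.99 ± 7.44 and 19.2 ± 7.92 in blastocysts and 65.9 ± 6.92 and 75.8 ± 4.05 in endometrium. EGFR itself was dim in both (20.2 and 24.4), as was ERBB3 (15.6 and 21.2).

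EDN1, the vasoactive peptide endothelin, ranked at 91.2, 88.3, 90.3, 87.3 and 86.2 in endometrium and at the lowest value in blastocysts (difference -73.03, standard error 0.896, adjusted p = 5.35e-13). Its receptors EDNRA (23.5 and 17.9) and EDNRB (15.6 and 28.6) were dim in both. Among FGF receptors, FGFR4 averaged 67.3 ± 1.63 and 3.93 ± 0.0736 with both probe sets called, while FGFR2 averaged 73.5 ± 5.53 and 87.02 ± 0.994. FZD4, a Wnt receptor, averaged 73.2 ± 4.203 and 6.59 ± 0.0764 on its brighter probe set and differed by 7.29 on the other. BMP2 (58.7 ± 3.70 and 30.3 ± 0.559) was called for blastocysts. INHBA, the activin subunit, was called at 52.6 ± 8.21 and 22.4 ± 0.659 and missed the size rule on gene means (24.0). TGFBR2, a receptor for TGF-beta, averaged 47.9 ± 3.04 and 73.7 ± 5.88, and its call was lost without HE endometrium replicate 2 (-24.96) or SE endometrium replicate 1 (-23.8).

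The insulin-like growth factors, their receptors and their carriers were read together. IGF2 ranked at 48.9, 49.3, 49.1, 49.2 and 49.2 in blastocysts and 36.01, 50.5, 35.4, 50.05 and 35.01 in endometrium, so the groups overlapped (adjusted p = 0.0606), and none of its 4 probe sets was called. IGF1 was at the lowest value in blastocysts and at 34.8 ± 0.346 in endometrium, and IGF1R was dim in both (15.6 and 10.7). IGF2R, which clears IGF2, averaged 95.2 ± 0.357 and 86.8 ± 1.86; its second probe set was called, with a difference of 27.02. In the list of 11 genes named for binding these factors or their mRNAs, 4 were called for blastocysts and 0 for endometrium: the mRNA-binding proteins IGF2BP1 and IGF2BP3, the binding protein IGFBP2 (57.1 ± 1.30 and 25.4 ± 2.74) and, at dim ranks, IGFALS (44.8 ± 0.179 and 14.3 ± 0.239). LIF, a cytokine of implantation, averaged 36.9 ± 0.56 and 19.2 ± 0.303, both dim, and LIFR is not named on the array.

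**Figure D5:**
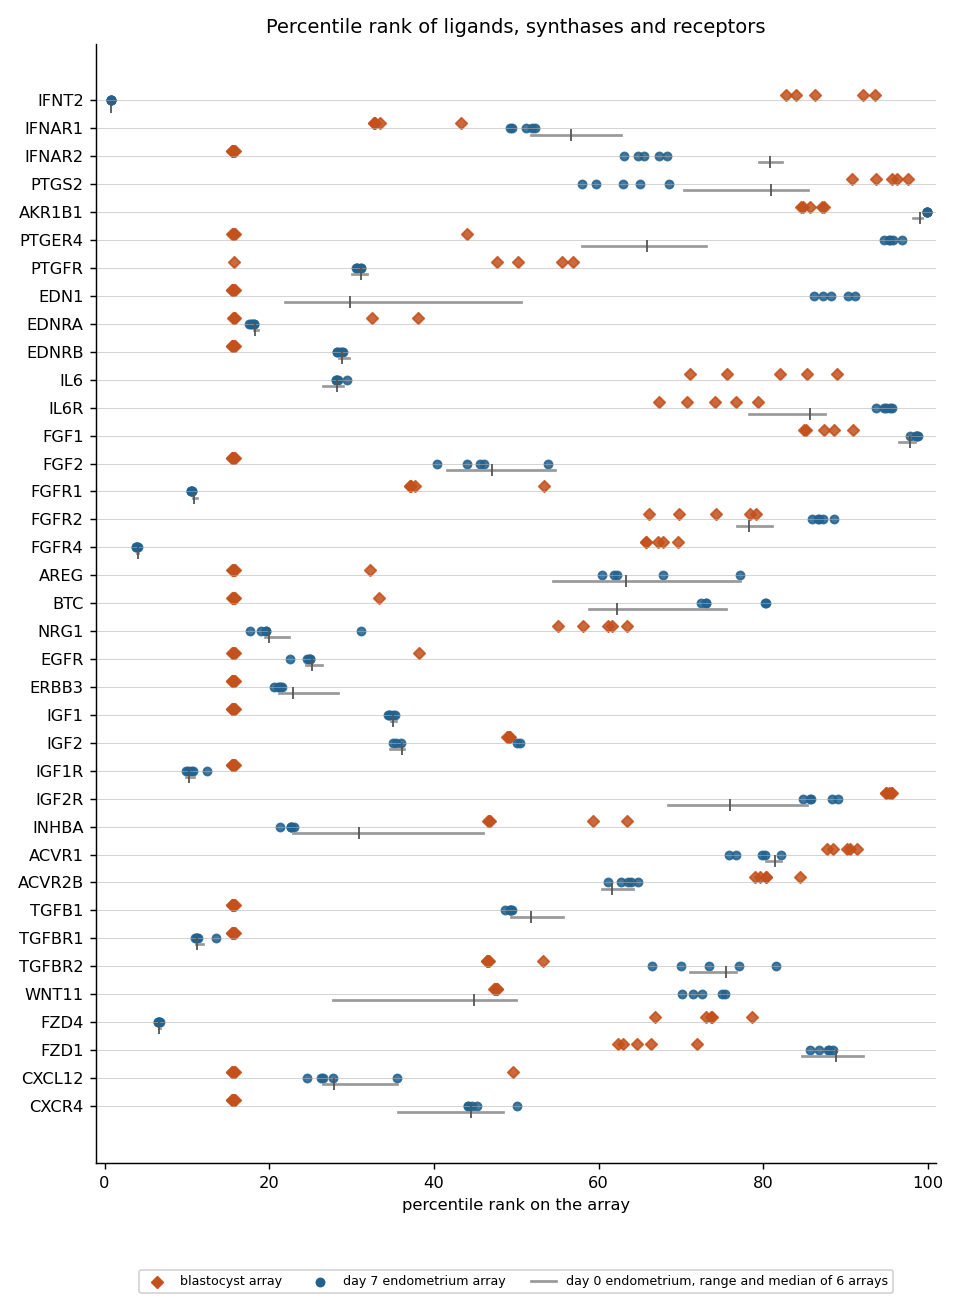
Percentile rank of 37 ligands, prostaglandin synthases and receptors on each blastocyst array (diamonds) and day 7 endometrial array (circles), with the range and median of the 6 day 0 arrays in grey. IFNT2, IL6, NRG1 and FGFR4 lie to the right in blastocysts, EDN1, PTGER4, AREG and BTC in endometrium, and many receptors sit in the dim range in both.

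Some contrasts met fixed rank thresholds on every array. By rank classes, which use thresholds and no test, 39 probe sets were at 90 or above on all blastocyst arrays and under 50 on all endometrial arrays. They named 23 genes, listed here after their values were seen: AIF1L, ATP6V0D2, ACSL6, CENPF, SLC16A1, XPNPEP2, TEX12, IL33, SYCP3, SLC2A5, CYP2S1, BUB1, AQP3, GATA6, CIT, CLDN6, BUB1B, ENPEP, CDCA8, IGF2BP3, DAB2, PROS1 and SLC7A5. SYCP3, a protein of meiotic chromosome pairing, averaged 92.6 ± 0.795 and 39.4 ± 0.315, and TEX12, of the same structure, 95.9 ± 0.893 and 42.8 ± 3.88. IL33, an alarm cytokine of barrier tissues, averaged 95.4 ± 1.44 in blastocysts and 38.6 ± 0.335 in endometrium. ENPEP, an aminopeptidase that cleaves angiotensin, averaged 99.67 ± 0.0871 and 36.5 ± 0.487. Just inside the class by its endometrial rank was BUB1 (44.01). The reverse class held 77 probe sets of 54 genes, among them the genes S100G, ANPEP, TFF3, SAA3, CA2, PTGER4, CXCL16, MGP and ALPL. The calcium-binding matrix protein MGP entered through a dimmer probe set, for its brighter one averaged 82.02 in blastocysts. Low on all 10 arrays, under percentile 50, were 8838 probe sets, 36.8% of the array.

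The day 0 arrays give the same genes in the uterus before insemination. On day 0, 27 of the 39 embryo-high probe sets were under 50 on all 6 endometrial arrays, and 24 of the 77 endometrium-high probe sets were at 90 or above on all 6. Of the probe sets low in both tissues, 8383 of 8838 were under 50 on all 6 day 0 arrays. Of those high in both, 977 of 1096 were at 90 or above there. The classes were themselves set by the day 7 endometrial ranks. These comparisons share the blastocyst arrays, so the values are set side by side. SLC16A1 ranked at 53.8 to 85.4 on day 0 (median 74.1), between the day 7 uterus (27.6) and the embryo (96.3). CLDN6 (70.3 to 89.4, median 77.8) and GPLD1, a phospholipase that cuts membrane anchors (62.7 to 85.2, median 74.8), stood far above their day 7 endometrial means of 30.6 and 19.3; GPLD1 averaged 76.96 ± 6.79 in blastocysts. ANPEP (40.4 to 65.3), EDN1 (21.9 to 50.5), LPL (24.1 to 36.4), CYBRD1 (21.5 to 56.1) and VCAM1 (7.10 to 23.4) were lower on every day 0 array than on any day 7 array. RBP4 ranked at 96.0 to 97.9 on day 0 and 44.1 to 47.1 on day 7, SERPINA14 at 97.6 to 98.8 and 60.2 to 69.1, and OLFM4, a glycoprotein of secretory epithelium, at 92.2 to 97.8 and 19.7 to 23.2. POU5F1 (1.37 to 1.40), IFNT2 (0.768 to 0.81), IGF2BP3 (4.46 to 4.65) and S100G (99.83 to 99.96) had like ranks on both days.

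Whether the gap between embryo and uterus differed between HE and SE donors was asked of each probe set with 2 HE and 3 SE pools a tissue. limma called 35 of 24016 probe sets (0.146%), 13 with a larger and 22 with a smaller value of blastocyst minus endometrium in SE; 1319 had an unadjusted p under 0.05 against 1201 expected at that level. In 21 of the 35 all tissue means were under percentile 50, and 12 had a gene symbol. The 5 with the smallest p have none, and in all 5 the blastocysts of 1 status were at the lowest value. Probe set Bt.16309.1.S1_at ranked at 15.6, 15.69, 60.4, 60.7 and 65.2 in blastocysts and 93.7, 92.2, 94.2, 93.4 and 93.7 in endometrium: both HE embryo pools were at the lowest value and the 3 SE pools were not (interaction 45.7 points, adjusted p = 0.000404). Probe set Bt.16508.1.A1_at showed the opposite in blastocysts, at 53.9, 54.4, 15.4, 15.9 and 15.5, with 32.3, 32.1, 32.2, 35.6 and 32.2 in endometrium (interaction -39.7, adjusted p = 0.000132). The count was 6 among probe sets at percentile 50 or above on at least 2 arrays, 4 with the replicate number as a block, 912 without HE blastocyst replicate 1, 641 without HE blastocyst replicate 2, 232 without HE endometrium replicate 2 and 146 without HE endometrium replicate 1. With 1 HE pool left in a tissue, that pool is assumed to vary like the other groups.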

How the data were processed

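The authors deposited GCRMA signals on the log2 scale, per the submitters' processing notes, which name GCRMA and limma without versions. No source used here says whether embryos and endometrium were normalized together. Of 24128 probe sets, 112 controls were left out and 24016 ranked, as 100 × (rank - 0.5) / n with average ranks for ties. GEO's platform annotation gives 13292 probe sets 1 symbol (9155 genes), 86 several and 10638 none. Ranks were fitted with limma 3.58.1 in R 4.3.3 (lmFit, eBayes, 2 tissue means, two-sided, Benjamini-Hochberg over all probe sets), and the interaction with 4 group means. The fit was tested on simulated data. Tables and plots used Python 3.11.15, pandas 2.3.3 and matplotlib 3.10.9. The number of arrays limits precision.

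Members and lists were chosen with earlier results of these data known. Named by rule were the 12 largest differences a direction, the 12 highest in both, up to 4 called members a list and direction, partners of named ligands and receptors, the 5 smallest interaction p-values and a list of lineage and uterine genes; other list members named were chosen after their values were seen. Replicate numbers were not taken to pair the tissues. Deviations of like-numbered arrays from their group means correlated at -0.00382 to 0.0278. With 2 or 3 arrays a group, this cannot show whether pools shared cows. Ranks over other sets, other ties, sizes and filters, log2 values, single statuses and leaving out each array were tried. Sequences were not used here.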

Additional observations from a re-analysis of the deposited data

Results flagged for a closer look

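In the 177 genes and transcripts named by rule, each tissue's 5 arrays were searched for an array set apart from the other 4, by Dixon's test of a gap against the whole range. Chance marks about 1 in 20 such groups; 52 of 354 were marked, 36 of them in blastocysts, and in 14 of these the other 4 arrays shared the lowest value. Where the other 4 were at that value, HE blastocyst replicate 1 held PSMB10 at 32.9 and SLC7A1 at 38.1. HE blastocyst replicate 2 held CA2 at 39.8 and PGR at 39.5. SE blastocyst replicate 1 held ALCAM at 46.1, AREG at 32.3, CFI at 42.7, SAA3 at 47.6 and TFF3 at 32.5. SE blastocyst replicate 2 held ESR2 at 32.02 and HPGD at 51.9. SE blastocyst replicate 3 held BTC at 33.4, ELF5 at 37.6 and PTGER4 at 44.1. HE blastocyst replicate 1 stood apart for AQP3 at 91.8 (others 93.8 to 94.4) and ZP3 at 49.9 (others 43.6 to 45.4). HE blastocyst replicate 2 stood apart for CYP19A1 at 63.2 (others 65.3 to 65.9), FGFR1 at 53.3 (others 37.1 to 37.8), IFNAR1 at 43.3 (others 32.7 to 33.5) and NQO1 at 55.9 (others 37.7 to 41.3). SE blastocyst replicate 1 stood apart for AGR2 at 60.9 (others 42 to 42.5), ALAS2 at 44.7 (others 50.6 to 51.6), CCNA2 at 85.5 (others 90.1 to 91.1), LPL at 60.8 (others 43.8 to 48.5), MUC1 at 57.7 (others 51.9 to 52.1) and OXTR at 45.6 (others 41.2 to 41.8). It also did for SLC7A5 at 92.1 (others 94.6 to 95.4) and TPPP3 at 43.6 (others 41.2 to 41.8). SE blastocyst replicate 2 stood apart for ODC1 at 99.99 (others 99.94 to 99.95), SLC16A3 at 34.95 (others 34.1 to 34.3), SLC2A4 at 38.4 (others 37.7 to 37.8), TGFBR2 at 53.3 (others 46.4 to 46.7) and TPT1 at 99.85 (others 99.91 to 99.92). SE blastocyst replicate 3 stood apart for CYP11A1 at 15.5 (others 42.3 to 51.5), IGFBP2 at 59.4 (others 56.1 to 57.02) and TPI1 at 44.6 (others 48.4 to 49.3). HE endometrium replicate 1 stood apart for BMP2 at 29.3 (others 30.4 to 30.7), CCNA2 at 22.04 (others 16.8 to 17.5), GPLD1 at 22.9 (others 18.2 to 18.5), IL6 at 29.5 (others 28.1 to 28.4), NRG1 at 31.1 (others 17.6 to 19.6) and PTGS1 at 36.3 (others 22.5 to 24.2). It also did for SLC5A11 at 18.6 (others 18.96 to 19.1). HE endometrium replicate 2 stood apart for CTSL at 52.6 (others 42.8 to 45.2) and INHBA at 21.3 (others 22.6 to 22.98). SE endometrium replicate 1 stood apart for AQP3 at 28.7 (others 11.5 to 12.9) and PDZK1IP1 at 93.7 (others 95.3 to 95.8). SE endometrium replicate 2 stood apart for Bt.16508.1.A1_at at 35.6 (others 32.1 to 32.3), IGFBP2 at 30.2 (others 23.7 to 25.3) and TROAP at 10.3 (others 7.39 to 8.17). SE endometrium replicate 3 stood apart for CXCR4 at 50.1 (others 44.2 to 45.2) and ODC1 at 99.97 (others 99.95 to 99.96). 

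For 5 transcripts the gap between tissues differed between donor statuses by the interaction test, given as the value in SE minus that in HE donors. The differences were 45.7 points for Bt.16309.1.S1_at (adjusted p = 0.000404), -39.7 points for Bt.16508.1.A1_at (adjusted p = 0.000132), -33.8 points for Bt.16705.1.A1_at (adjusted p = 1.16e-05), -26.7 points for Bt.19356.1.A1_at (adjusted p = 8.3e-06) and -25.8 points for Bt.21563.2.A1_at (adjusted p = 8.3e-06). In each, the blastocysts of 1 status were at the lowest value.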

How the results depend on the processing

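Calls rested on the size rule and the scale. Higher in blastocysts and in endometrium were 5514 and 4991 probe sets on jointly quantile-normalized log2 values (at least 1), 1054 and 1186 ranked over named probe sets, 668 and 847 genes on gene means, 6685 and 6204 at 10 points and 282 and 435 at 50; with tied values at their lowest rank, endometrial calls were 4204. Rankings over named probe sets and gene means hold fewer features. For gene means, the log2 values of a gene's probe sets were averaged and the genes ranked anew. The mean of a gene's probe sets, used for list counts, instead averages their ranks. Leaving out each array gave 2134 to 2159 and 2329 to 2364. The replicate block, pairing arrays of a status by replicate number, kept 4484 of the 4485 calls (2136 and 2348), and of the interaction calls it left 4. HE blastocyst replicates 1 and 2 are titled pools 2 and 3, so the block may match unlike pools. Donor status as a term, normal scores, the trend, the rank filter and either status alone kept both counts within 1.5 times. Tying dim endometrial values too, an alternative chosen after seeing the data, also did so (2208 and 2340). Status term, block and trend leave the tissue differences as they were, and the filter only removes probe sets. Normal scores took the size rule from the percentile differences. With 85.3% of probe sets passing the adjusted p, these settings could hardly change the call of a tested probe set. Their like counts are therefore no support.

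The interaction count was 6 after the filter, which tested 18 of the 35, and 29 to 912 leaving out an array; the cause was not tested. Embryo-high and endometrium-high probe sets numbered 116 and 202 with high at 80, 11 and 32 at 95, 14 and 25 with low under 30, and 77 and 130 under 60; high in both numbered 2717 and 504 at 80 and 95, and low in both 3670 under 30. Over named probe sets the last 3 classes held 50, 604 and 4961. Without single arrays the 4 classes ranged from 39 to 42, 78 to 88, 1106 to 1117 and 8869 to 8997. On the mean of a gene's probe sets, endometrial calls were 1 for cell cycle and 2 for cholesterol synthesis, and blastocyst calls 1 for prostaglandins, 0 for stroma, 2 for receptors, 1 for adhesion and 2 for stress.

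Of 172 named genes tested, none changed direction under any setting run. Gene means ended 19 calls, ranks over named probe sets 7, HE arrays alone 7 (ERAP1, GCLC, GSTA2, ITGA5, MET, PTGS1 and SLC7A1) and log2 values 6. Tying dim endometrial values ended 3 (CYP11A1, FGFR1 and SLC2A4) and SE arrays alone 1 (MYLK). Leaving out a single array ended the calls of ERAP1, MYLK (23.6 without HE endometrium replicate 1, 23.7 without SE endometrium replicate 3) and TGFBR2. Ties at the lowest blastocyst value and compressed ranks at the top limit what could be seen, whatever the number of arrays.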
